A study of Mus musculus with 8 samples.

Results

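The 10 genes described here encode cell-cell adhesion molecules that melanocytic cells use: Mcam, Alcam, L1cam, Ncam1 and Cadm1 of the immunoglobulin type, and the cadherins Cdh1, Cdh2, Cdh3, Cdh11 and Cdh13. They were taken by symbol from the 54418 genes of the deposited tables, and all 10 were among the 16011 genes with enough counts to be tested. The genes were chosen by their known role in adhesion and, for Mcam, by its log2 change between the genotypes in these same libraries. The other genes were named with results of that comparison at hand. Their changes are therefore given as a description, with p-values that are adjusted over all genes tested and support no further statement about the list.

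The RNA came from melanocyte stem cells of dorsal skin at postnatal day 21; these cells sit in the hair follicle and supply it with new pigment cells. The 4 Bmi1-deleted libraries came from Bmi1fl/fl mice that carried Tyrosinase-Cre, Dct-rtTA and TRE-H2B-GFP. The 4 control libraries came from Bmi1fl/fl mice with Dct-rtTA and TRE-H2B-GFP but no Cre. All mice were of a mixed C57Bl-6;129Sv background and were fed doxycycline, which turns on a histone-GFP reporter through the Dct promoter. Live GFP-positive cells were sorted, so the cells compared are those in which Dct drove the reporter, and Cre was made only where the Tyrosinase promoter is or had been active. No label says that replicates came from separate animals, so p-values measure the spread between these samples, which may be technical.

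Cadherins are transmembrane proteins that bind a like cadherin on the neighbouring cell in the presence of calcium, and hold on to the actin cytoskeleton through beta-catenin, plakoglobin and alpha-catenins. In skin, E-cadherin (Cdh1) joins melanocytes to keratinocytes, and P-cadherin (Cdh3) is found in basal cells and the hair follicle. N-cadherin (Cdh2) is used by fibroblasts, neural cells and many melanoma cells. Adhesion molecules of the immunoglobulin type bind without calcium, to themselves or to other ligands. Human melanoma cells are known for high MCAM, ALCAM and L1CAM.

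The libraries held 9076517 to 10368174 counts in the Bmi1-deleted group and 8882656 to 9466711 in the control group. Bmi1 itself had 627, 713, 626 and 607 counts in Bmi1-deleted libraries 1 to 4, against 796, 743, 705 and 859 in control libraries 1 to 4 (exact two-sided permutation test, p = 0.0286, which no split of these 8 libraries can undercut; adjusted p over all genes = 0.607, edgeR). On the deposited TPM it had 7.96 to 19.5 in Bmi1-deleted libraries, against 24.2 to 36.4 in control libraries, and its mean log2 difference was −1.24 there and −0.25 on CPM. The deleted exons are not stated in the labels, and counts over the whole gene include reads outside them. The first principal component (27.2% of the variance) parted libraries 1 and 2 of both genotypes from libraries 3 and 4, and the second (16.3%) parted the genotypes. Genes of the labelled cell type were abundant in every library: the 10 melanocyte markers summed to 4910 to 10389 CPM (counts per 1e+06 counts of a library, scaled by TMM) in Bmi1-deleted libraries and 8716 to 14686 CPM in control libraries. Fibroblast markers summed to 8935 to 19479 CPM in Bmi1-deleted libraries, against 5417 to 9331 CPM in control libraries, and were highest in libraries 1 and 2 within each genotype. In such bulk samples, fewer cells of a type and less RNA per cell cannot be told apart.

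Of the 10 genes, 0 passed the test across all genes (edgeR quasi-likelihood test, Benjamini-Hochberg adjusted p under 0.05). In the background of all genes 0.0937% passed, 0.0874% higher and 0.00625% lower in Bmi1-deleted libraries. At an unadjusted p under 0.05 there were 2 of the 10, Mcam and Cdh1, against 8.27% of all genes. DESeq2 called 1, Mcam, where it called 158 of 20397 genes in all. Limma on log2 of TPM plus 1 called 0, where it called 4 of 16011 genes in all. With the replicate number as a block Mcam and Cdh2 rose and 0 fell, where 2.41% of all genes passed, 1.71% higher and 0.706% lower. The median log2 change of the 10 genes was 0.19, and that of all tested genes was 0.01.

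**Figure D1:**
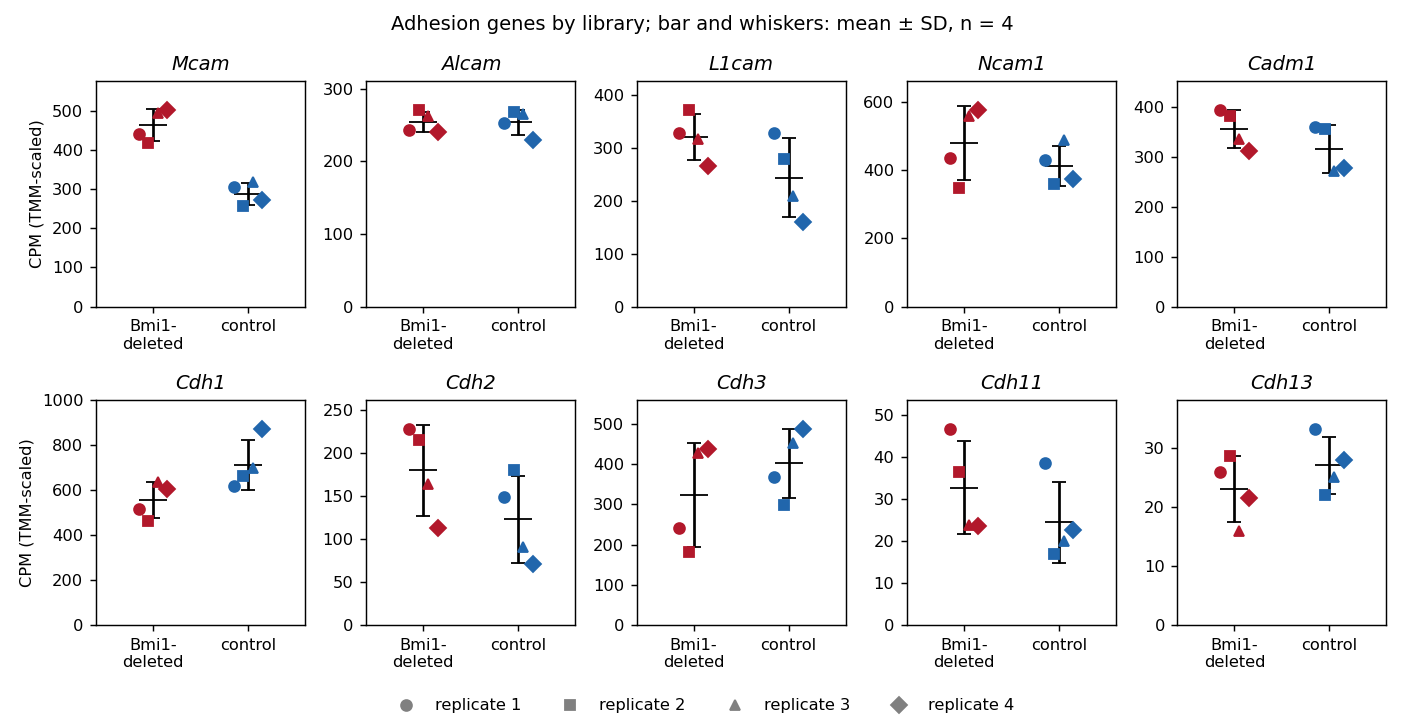
Level of each adhesion gene in CPM (TMM-scaled, linear axis from 0) in 4 Bmi1-deleted and 4 control libraries; symbols mark the replicate number, the bar is the mean and the whiskers are the SD. Mcam is the gene whose 4 Bmi1-deleted libraries (417 to 501 CPM) all lie above the 4 control libraries (258 to 319 CPM), and the replicates of Cdh2 and Cdh3 are spread widely within both genotypes.

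Mcam encodes the melanoma cell adhesion molecule, an immunoglobulin-type receptor of melanoma cells, endothelium and mural cells that binds laminins and galectins. The gene (ENSMUSG00000032135) lies on the plus strand of chromosome 9, 44134469 to 44142727 in mm10. It had 440, 417, 494 and 501 CPM in Bmi1-deleted libraries 1 to 4, against 305, 258, 319 and 272 CPM in control libraries 1 to 4. Every Bmi1-deleted library was above every control library. Mcam was the 1 gene of the 10 whose groups did not overlap in CPM. Of all tested genes 5.18% did not overlap in CPM, 2.79% higher and 2.39% lower in Bmi1-deleted libraries. The means were 463 ± 41.0 CPM in Bmi1-deleted and 288 ± 28.2 CPM in control libraries (SD, n = 4 each), a 1.61-fold difference. On the log2 scale this was 0.68 with an SE of 0.12, and the adjusted p of 0.0515 fell just short of the threshold, at place 17 of all genes ranked by p.

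With the replicate block the change of Mcam was again 0.68, with an SE of 0.10 and an adjusted p of 0.00124 in edgeR. The 4 same-numbered pairs gave log2 differences of 0.53, 0.69, 0.63 and 0.88, all of one sign. Among 23 alternative settings the change was positive in all and passed in 12. The adjusted p ran from 7.11e-05 (edgeR with no filter on low counts) to 0.841 (limma on log2 of the deposited TPM plus 0.1). The edgeR fit without control library 1 gave an adjusted p of 0.0466, the 1 pass among the 8 fits that leave out a library. With the fibroblast marker score as a covariate the change was 0.80, and with the keratinocyte marker score it was 0.71. The fibroblast score was higher in each Bmi1-deleted library than in its same-numbered control, so that covariate overlaps with genotype. Scores of mural and endothelial markers, whose cells also use Mcam, were not used as covariates. Gm10687, a predicted gene on the opposite strand, shares 17 exonic bases with Mcam and had a mean of 64.6 counts where Mcam had 3476.

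The start of Mcam is shown because it is the gene of the list whose groups stood apart in CPM. That of Alcam is set beside it, as its change was nearest to 0. Both windows are from RefSeq (GRCm38.p6), run 5′ to 3′ on the gene's strand from 250 bases before the start to 50 after it, and have the E-box in capitals. The E-box searched was CAGGTG or CACCTG, which are reverse complements of each other, so both strands were covered. Factors of the Snail and ZEB families are known to bind such boxes.
Mcam promoter, chr9:44134408-44134707, plus strand: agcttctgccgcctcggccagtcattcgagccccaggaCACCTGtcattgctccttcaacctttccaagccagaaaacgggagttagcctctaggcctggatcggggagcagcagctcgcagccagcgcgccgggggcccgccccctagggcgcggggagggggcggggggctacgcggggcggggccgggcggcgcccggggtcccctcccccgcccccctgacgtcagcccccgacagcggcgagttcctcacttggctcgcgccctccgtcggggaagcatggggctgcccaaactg
Alcam promoter, chr16:52453032-52453331, minus strand: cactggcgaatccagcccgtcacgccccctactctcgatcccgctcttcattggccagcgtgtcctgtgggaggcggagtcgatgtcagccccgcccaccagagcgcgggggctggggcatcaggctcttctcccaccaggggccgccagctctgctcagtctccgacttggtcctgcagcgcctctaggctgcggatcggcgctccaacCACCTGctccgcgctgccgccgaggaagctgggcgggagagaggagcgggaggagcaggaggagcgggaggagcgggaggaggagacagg

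The Mcam window held 29 CpG and 72.7% G or C, and 87.1% of the 32851 promoter windows of the table held fewer CpG (median 7). Its 1 E-box began at −212 from the RefSeq start and that of Alcam at −40. These RefSeq starts are 44134658 for Mcam and 52453081 for Alcam. Both lie inside the annotated gene spans, which begin at 44134469 for Mcam and at 52454074 for Alcam. Counted from the latter starts, the offsets would differ. An E-box of these letters was found in 20.2% of all windows. The M-box, CATGTG or CACATG, which MITF is known to bind, was in neither window and in 14.2% of all. Of the 10 genes 3 were matched in the promoter table, and both windows of the third, L1cam, held neither motif. A match is a description of letters and not a measured binding site.

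Alcam encodes the activated leukocyte cell adhesion molecule, which binds to itself and to CD6. Its levels were 244, 270, 262 and 241 CPM in Bmi1-deleted libraries, against 253, 268, 264 and 229 CPM in control libraries. The ranges overlapped over nearly their whole width, with means of 254 ± 14.1 CPM in Bmi1-deleted and 254 ± 17.6 CPM in control libraries (SD, n = 4 each). The log2 change was 0.003 with an SE of 0.11, the smallest change of the 10 genes.

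L1cam encodes an adhesion molecule of growing axons that is also found on Schwann cells and melanoma cells. It had 328, 371, 316 and 265 CPM in Bmi1-deleted libraries, against 329, 279, 208 and 160 CPM in control libraries. Levels were lowest in library 4 of both genotypes, and control library 1 was as high as its Bmi1-deleted counterpart. The log2 change was 0.39 (SE 0.20, edgeR adjusted p = 0.654), and 0.43 with the replicate block (SE 0.12, adjusted p = 0.0656). Without pair 1 the blocked change was 0.58 and passed, at an adjusted p of 0.0117, while adjusted p over the settings that keep all libraries ran from 0.0656 to 0.978. With the fibroblast marker score as a covariate it was 0.03. L1cam is on the X chromosome (73853778 to 73896105 in mm10, minus strand), and with sex as a covariate its change was 0.44. Arhgap4, a coding gene on the same strand, shares 100 exonic bases with L1cam. It had a mean of 58.6 counts where L1cam had 2632.

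Ncam1 encodes the neural cell adhesion molecule, a homophilic receptor whose polysialic acid chains are known to loosen contacts. It had 435, 346, 559 and 574 CPM in Bmi1-deleted libraries, against 428, 358, 487 and 372 CPM in control libraries. The first and second pairs were nearly level and the fourth parted by 0.62 on the log2 scale. Overall the log2 change was 0.22 (SE 0.17, adjusted p = 0.818, edgeR). It was 0.11 to 0.34 with 1 library left out, 0.05 in the blocked fit without pair 4 and 0.48 with the fibroblast marker score as a covariate, and passed in none of these.

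Cadm1 encodes an adhesion molecule that joins mast cells, nerves and epithelia by binding itself and related molecules. Its levels were 393, 382, 337 and 311 CPM in Bmi1-deleted libraries, against 359, 355, 272 and 278 CPM in control libraries. All 4 pairs were higher in Bmi1-deleted libraries, by 0.11 to 0.31 on the log2 scale, but the groups overlapped and the change of 0.17 (SE 0.13) had an edgeR adjusted p of 0.827. With the fibroblast marker score as a covariate it was −0.09.

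**Figure D2:**
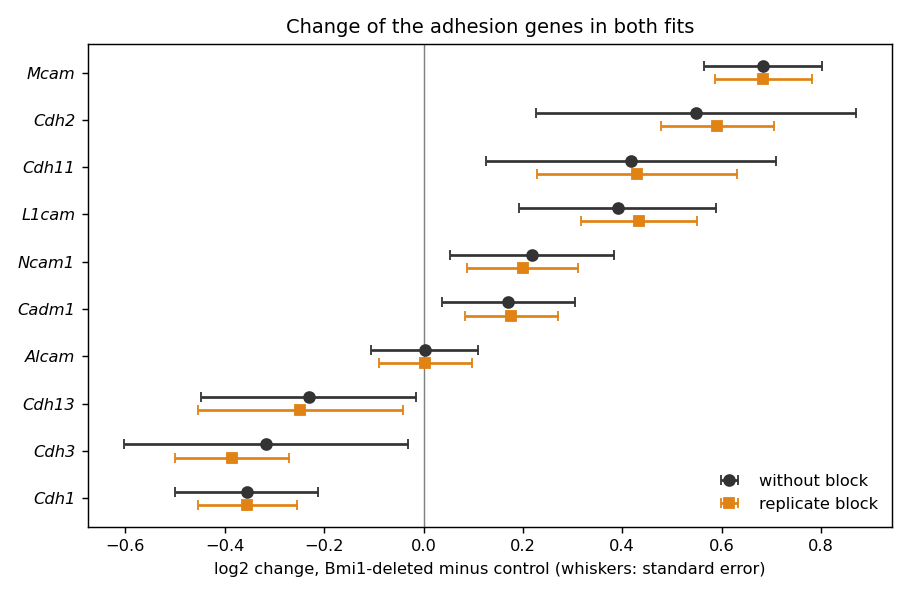
Log2 change of each adhesion gene, Bmi1-deleted minus control, in the edgeR fit without a block (circles) and with the replicate number as a block (squares); whiskers are standard errors. Mcam is at 0.68 in both fits; Cdh2 is at 0.55 and 0.59, with an SE of 0.32 without and 0.11 with the block.

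Cdh1 encodes E-cadherin. It had 517, 463, 637 and 604 CPM in Bmi1-deleted libraries, against 616, 660, 696 and 871 CPM in control libraries. The means were 555 ± 79.9 CPM in Bmi1-deleted and 711 ± 112 CPM in control libraries (SD, n = 4 each). In CPM the groups overlapped because Bmi1-deleted library 3 was above control library 1. On the deposited TPM, rescaled as described below, they narrowly did not. The highest Bmi1-deleted library had 250.8 TPM and the lowest control library 252.0 TPM. The share of all genes without overlap in TPM was not counted. All 4 pairs were lower in Bmi1-deleted libraries, by 0.13 to 0.53 on the log2 scale. The log2 change of −0.36 (SE 0.14) did not pass in edgeR either without a block (adjusted p = 0.540) or with one (adjusted p = 0.0840). The sum of melanocyte markers was also lower in each Bmi1-deleted library than in its pair. Of those 10 markers 1 had a positive log2 change (median −0.71) and 0 were at 0 in all libraries, and their part in the level of Cdh1 was not tested. With the fibroblast marker score as a covariate the change of Cdh1 was −0.12.

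Cdh3 encodes P-cadherin and lies 46.1 kb before Cdh1 on the same strand of chromosome 8, with 1 coding gene annotated between them. It had 242, 183, 428 and 438 CPM in Bmi1-deleted libraries, against 369, 298, 453 and 488 CPM in control libraries. Libraries 1 and 2 were lower than libraries 3 and 4 in both genotypes, and the pairs differed by −0.61, −0.70, −0.08 and −0.15 on the log2 scale. The change of −0.32 (SE 0.29, edgeR adjusted p = 0.869) became −0.39 with the block (SE 0.11, adjusted p = 0.104) and 0.29 with the fibroblast marker score as a covariate.

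Cdh2 encodes N-cadherin and lies on chromosome 18, 16588877 to 16809246 in mm10, minus strand. It had 228, 215, 163 and 112 CPM in Bmi1-deleted libraries, against 149, 180, 90.7 and 71.3 CPM in control libraries. Its levels were higher in libraries 1 and 2 than in 3 and 4 in both genotypes, the reverse of Cdh3, so the groups overlapped although each Bmi1-deleted library was above its pair. The log2 change was 0.55 (SE 0.32, edgeR adjusted p = 0.746). With the block Cdh2 rose by 0.59 (SE 0.11, adjusted p = 0.00935), and it passed in 2 of the 4 blocked fits that leave out a pair, those without pair 1 or 2, with adjusted p up to 0.0871 in the others. Over the alternatives that keep all libraries the adjusted p ran from 0.00935 to 0.923.

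Fibroblasts also use N-cadherin, and their markers ran in the same direction as Cdh2. Of the 15 tested fibroblast markers 14 had a positive log2 change (median 0.96), with the summed levels given above and 0 of the 17 listed genes at 0 in all libraries. With the fibroblast marker score as a covariate the change of Cdh2 was −0.22 (SE 0.22, edgeR adjusted p = 0.778). That score was itself higher in each Bmi1-deleted library than in its same-numbered control, so the covariate overlaps with genotype. The part of fibroblast RNA in the level of Cdh2 was not tested.

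Cdh11 encodes a cadherin of mesenchymal cells. It had 46.7, 36.5, 23.9 and 23.6 CPM in Bmi1-deleted libraries, against 38.6, 16.8, 19.9 and 22.5 CPM in control libraries. Its groups overlapped, the change was 0.42 (SE 0.29, edgeR adjusted p = 0.804), and with the fibroblast marker score as a covariate it was −0.16. With 1 library left out the change of Cdh11 was 0.20 (without Bmi1-deleted 1) to 0.73 (without control 1). Cdh13 encodes T-cadherin, which is held on the membrane by a lipid anchor and has no cytoplasmic tail to bind catenins. It had 25.9, 28.7, 16.0 and 21.5 CPM in Bmi1-deleted libraries, against 33.3, 22.0, 25.0 and 27.9 CPM in control libraries. The change was −0.23 (SE 0.22, edgeR adjusted p = 0.872), with 3 of 4 pairs lower in CPM. Per length the groups also overlapped, and the median was higher in Bmi1-deleted (21.0 TPM) than in control libraries (16.6 TPM). Rescaled TPM were 23.0, 21.0, 7.53 and 20.9 in Bmi1-deleted libraries, against 19.2, 11.7, 13.9 and 19.8 in control libraries. In limma on the deposited TPM the change kept the sign seen in CPM, at −0.09 with a pseudocount of 1 and −0.14 with 0.1. The ratio of TPM to CPM of Cdh13 differed by 0.33 on the log2 scale between the genotypes, and 9.08% of the genes compared differed further.

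Set side by side, all 4 pairs had one sign in 6 of the 10 genes: Mcam, Cadm1, Cdh2 and Cdh11 were higher, and Cdh1 and Cdh3 lower, in each Bmi1-deleted library than in its pair. Of all tested genes 20.5% had all 4 pairs of one sign, in either direction. The level of Cdh2 per Cdh1, as a ratio of TPM (transcript abundance divided by length), was 0.430, 0.460, 0.252 and 0.168 in Bmi1-deleted libraries, against 0.241, 0.257, 0.135 and 0.0804 in control libraries. Each Bmi1-deleted library was above its pair in this ratio. In TPM as in CPM, Cdh2 was higher and Cdh1 lower in each pair. The sign of the ratio was thus given by both genes and is no separate result. The groups overlapped, as the Bmi1-deleted values of 0.252 and 0.168 were below the control value of 0.257. In every library Cdh1 was the more abundant of both.

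Levels per length were compared on the deposited TPM, rescaled without Gm23935 and CT010467.1, whose share of a library's TPM was 74.0% to 85.9%. In Bmi1-deleted libraries the order by median was Mcam (449 TPM), Cadm1 (258), Ncam1 (230), Cdh1 (215), Alcam (196), L1cam (144), Cdh3 (130), Cdh2 (71.9), Cdh13 (21.0) and Cdh11 (11.8). Mcam stood above Cadm1 without overlap, as did Alcam above L1cam and Cdh2 above Cdh13, and the other neighbours overlapped between libraries. In control libraries the order was Mcam (282 TPM), Cdh1 (263), Cadm1 (229), Alcam (200), Ncam1 (184), Cdh3 (159), L1cam (120), Cdh2 (47.9), Cdh13 (16.6) and Cdh11 (9.16). There Mcam and Cdh1 overlapped, and the neighbours that did not were L1cam above Cdh2 and Cdh2 above Cdh13. Mcam in control libraries was above 97.3% of tested genes, Cdh2 above 77.1% and Cdh11 above 39.8%.

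**Figure D3:**
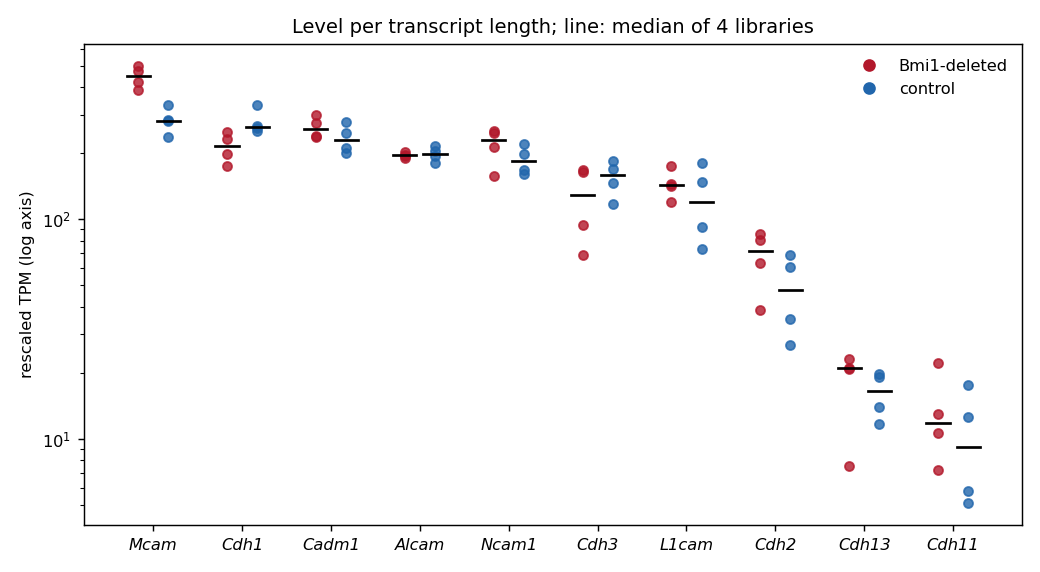
Rescaled TPM (log axis) of the adhesion genes in each Bmi1-deleted and control library, with a line at the median of 4 libraries and the genes in the order of their control medians. Mcam is at the top, with medians of 449 TPM in Bmi1-deleted and 282 TPM in control libraries, and Cdh13 and Cdh11 are at the bottom, with every library below every library of Cdh2.

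The genes whose levels were most like those of Mcam were found by Pearson correlation of log2 CPM over the 8 libraries, among 8734 genes with a mean of at least 10 CPM. They were Peg3 (r = 0.979), Hspa2 (0.977), Peg10 (0.974), Tmem50a (0.972) and Shtn1 (0.969). Peg3 and Peg10 are imprinted genes expressed from the paternal copy, Hspa2 encodes a heat shock protein, and Shtn1 encodes shootin, a protein of neuronal polarity. Peg3 had 308 ± 11.7 CPM in Bmi1-deleted and 149 ± 26.4 CPM in control libraries, and Shtn1 averaged 236 CPM in Bmi1-deleted and 144 CPM in control libraries (SD, n = 4 each). Like Mcam, all 5 had every Bmi1-deleted library above every control library, as had 2.79% of all tested genes. They were picked for their likeness to a gene with this gap, which favours the same gap in them. The correlations thus follow the difference between genotypes, and the gap is no separate result. The libraries also share their depth and sorting. These values are a description with no test.

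Ligands and partners of the immunoglobulin-type molecules were described from a list of 20 genes, of which 18 were tested. Without a block 0 passed and 9 had an unadjusted p under 0.05, with a median log2 change of 0.46; DESeq2 called 3. With the block 6 rose and 0 fell: the laminin chains Lama4, Lamb1 and Lamc1, the galectin Lgals1, Ank3 and Mpp6. Of all tested genes 8.27% had an unadjusted p under 0.05, and with the block 1.71% rose and 0.706% fell. DESeq2 called 158 of 20397 genes. The counts of the other lists and of the marker lists below are to be read beside these same shares. Laminins built from the alpha-4 chain and galectin-1 are known ligands of MCAM. Lamc1 had 1098 ± 90.3 CPM in Bmi1-deleted and 749 ± 83.7 CPM in control libraries (log2 change 0.55, adjusted p = 0.133 without and 0.00374 with the block, edgeR). Lgals1 had 114 ± 18.0 CPM in Bmi1-deleted and 70.8 ± 7.21 CPM in control libraries (log2 change 0.69, edgeR adjusted p = 0.0875 without and 0.00647 with the block). Ank3, which encodes ankyrin-G, an adaptor of the L1 family, had 771 ± 57.7 CPM in Bmi1-deleted and 459 ± 115 CPM in control libraries (log2 change 0.75, edgeR adjusted p = 0.135 without and 0.00237 with the block). For these 3 genes every Bmi1-deleted library was above every control library. They were named for having the smallest p of their list, which favours such a gap, and of all tested genes 2.79% were higher without overlap. Lamb1 had 1234, 1258, 949 and 860 CPM in Bmi1-deleted libraries, against 962, 777, 690 and 571 CPM in control libraries, and was highest in libraries 1 and 2 of both genotypes. So were the fibroblast markers, which summed to 8935 to 19479 CPM in Bmi1-deleted and 5417 to 9331 CPM in control libraries. Of 15 tested fibroblast markers 14 had a positive log2 change, 9 rose with the block and 0 were at 0 in all libraries; their part in the values of these ligands and partners was not tested.

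Of 23 tested genes of other immunoglobulin-type adhesion molecules (29 listed), 0 passed without a block, 8 had an unadjusted p under 0.05 and the median log2 change was 0.41; DESeq2 called 2. With the block Cadm4, Chl1 and Jam3 rose and Nrcam fell. Jam3, a junctional adhesion molecule, had 66.5 ± 11.1 CPM in Bmi1-deleted and 37.1 ± 7.45 CPM in control libraries (log2 change 0.84, adjusted p = 0.116 without and 0.00291 with the block, edgeR). Cadm4, a Schwann cell adhesion molecule that binds axons, had 260 ± 35.4 CPM in Bmi1-deleted and 168 ± 42.6 CPM in control libraries (log2 change 0.63, edgeR adjusted p = 0.246 without and 0.00237 with the block). Ceacam1 had 23.1 ± 3.69 CPM in Bmi1-deleted and 13.5 ± 1.62 CPM in control libraries and did not pass in either fit (adjusted p = 0.247 and 0.109, edgeR).

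Cntn1, which encodes contactin, a lipid-anchored partner of L1 family molecules, was singled out after its values were seen. It had 5.07, 0.795, 11.6 and 12.4 CPM in Bmi1-deleted libraries, against 55.7, 31.1, 46.4 and 42.3 CPM in control libraries. Every Bmi1-deleted library was below every control library, as in 2.39% of all tested genes, with the lowest value in Bmi1-deleted library 2. Its log2 change was −2.56 with an SE of 0.64 and did not pass in edgeR without a block (adjusted p = 0.304) or with one (adjusted p = 0.167). Of the 8 fits that leave out a library 1 passed, that without Bmi1-deleted library 2 (log2 change −2.19), and their edgeR adjusted p ran from 0.0271 to 0.682. The blocked edgeR fit without pair 2 also passed (log2 change −2.38, adjusted p = 0.0116). Those without pair 1, 3 or 4 did not (edgeR adjusted p = 0.350, 0.248 and 0.128). DESeq2 gave an adjusted p of 0.0494.

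Schwann cells are known to use several molecules of the immunoglobulin type, Cadm4 and L1cam among them. Of 16 tested Schwann cell markers 15 had a positive log2 change (median 0.52), 0 were at 0 in all libraries, and with the block 10 rose and 0 fell. Their summed level was 5927 to 8363 CPM in Bmi1-deleted libraries and 3327 to 6270 CPM in control libraries (exact two-sided permutation p = 0.0571, adjusted over 7 marker lists 0.133). The part of Schwann cell RNA in the values of the adhesion genes was not tested.

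**Figure D4:**
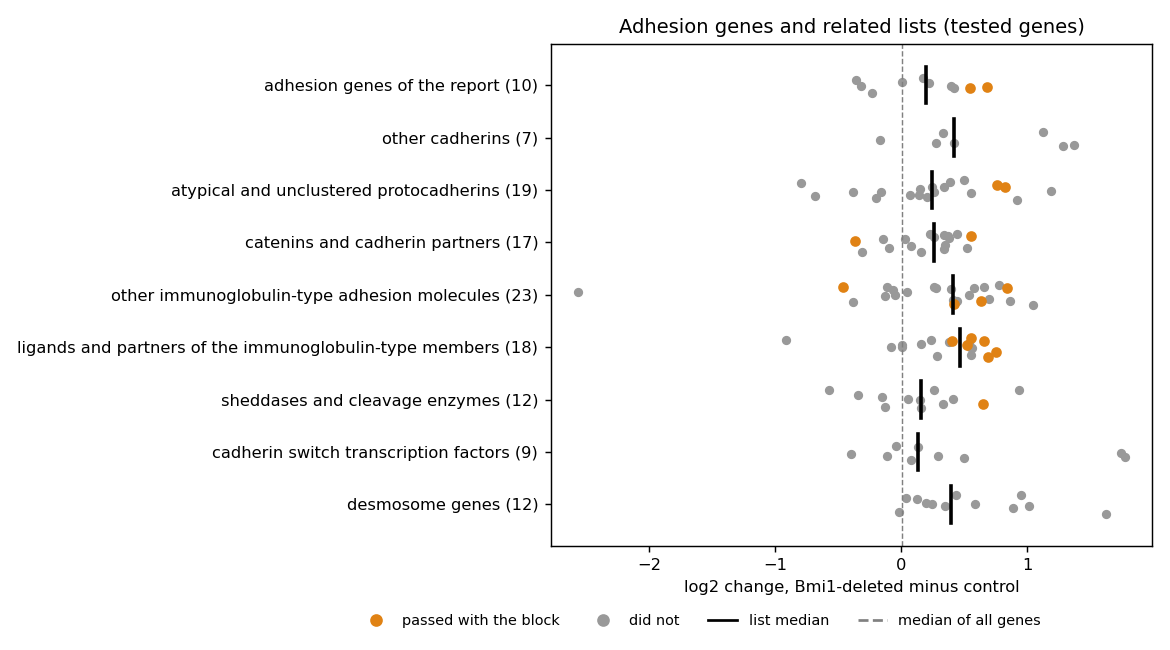
Log2 change, Bmi1-deleted minus control, of each tested gene of the adhesion genes described here and of 8 related lists; the number tested is in brackets orange points passed with the replicate block, black lines are list medians and the dashed line is the median of all tested genes, 0.01. The medians of the related lists lie between 0.13, for transcription factors of the cadherin switch, and 0.46, for ligands and partners.

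Catenins and other partners of cadherins were all expressed enough to be tested, 17 of 17. Without a block 0 passed, 3 had an unadjusted p under 0.05 and the median log2 change was 0.26; DESeq2 called 0. With the block Ctnna3 rose and Ctnnb1 fell. Ctnnb1, which encodes beta-catenin, had 650, 689, 847 and 866 CPM in Bmi1-deleted libraries, against 883, 923, 1013 and 1111 CPM in control libraries. All 4 Bmi1-deleted libraries were below all 4 control libraries, as in 2.39% of all tested genes. The log2 change was −0.37 (SE 0.13), with an edgeR adjusted p of 0.477 without and 0.0436 with the block. Ctnna3, an alpha-catenin, had 62.9 ± 7.85 CPM in Bmi1-deleted and 42.9 ± 11.9 CPM in control libraries (log2 change 0.55, adjusted p = 0.428 without and 0.0473 with the block, edgeR). Plekha7, a protein of the adherens junction, had 51.7 ± 4.39 CPM in Bmi1-deleted and 39.9 ± 6.16 CPM in control libraries and passed in neither fit (adjusted p = 0.546 and 0.310, edgeR).

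Among other cadherins 7 of 18 were tested, 0 passed with or without a block, 2 had an unadjusted p under 0.05, DESeq2 called 0 and the median log2 change was 0.42. Cdh10 had 12.5 ± 6.59 CPM in Bmi1-deleted and 5.76 ± 2.54 CPM in control libraries, and Cdh20 had 6.24 ± 1.76 CPM in Bmi1-deleted and 2.40 ± 1.70 CPM in control libraries. Cdh5, the cadherin of endothelium, had 10.2 ± 7.25 CPM in Bmi1-deleted and 4.18 ± 3.00 CPM in control libraries. Endothelial markers, Cdh5 among them, summed to 169 to 244 CPM in Bmi1-deleted and 134 to 186 CPM in control libraries. Of the 12 listed, 3 (Cdh5, Pecam1 and Esam) are also on the adhesion lists described here. A mean of at least 10 CPM in control libraries was reached by 1 of the 12. Of 10 tested markers 9 had a positive change and 0 were at 0 in all libraries. Their part in the cadherin values was not tested.

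Of 24 atypical and unclustered protocadherins 19 were tested. Without a block 0 passed, 3 had an unadjusted p under 0.05, DESeq2 called 2 and the median log2 change was 0.24. With the block Pcdh1 and Pcdh10 rose. Pcdh10 had 92.4 ± 6.42 CPM in Bmi1-deleted and 52.3 ± 12.4 CPM in control libraries (log2 change 0.82, adjusted p = 0.0875 without and 0.00252 with the block, edgeR). Pcdh1 had 142 ± 19.3 CPM in Bmi1-deleted and 83.9 ± 21.8 CPM in control libraries (log2 change 0.76, edgeR adjusted p = 0.144 without and 0.00219 with the block). Pcdh17 had 42.1 ± 6.24 CPM in Bmi1-deleted and 28.8 ± 2.86 CPM in control libraries and did not pass (adjusted p = 0.331 and 0.133, edgeR). For all 3 genes every Bmi1-deleted library was above every control library. They were named for having the smallest p of their list, which favours such a gap, and of all tested genes 2.79% were higher without overlap.

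Enzymes that cut adhesion molecules from the surface were tested in full, 12 of 12. Without a block 0 passed, 3 had an unadjusted p under 0.05, DESeq2 called 0 and the median log2 change was 0.15. With the block Adam19 rose, with 68.6 ± 14.1 CPM in Bmi1-deleted and 43.8 ± 19.6 CPM in control libraries (log2 change 0.65, adjusted p = 0.590 without and 0.0163 with the block, edgeR). Adam17, a sheddase of many surface proteins, had 115 ± 11.3 CPM in Bmi1-deleted and 86.4 ± 8.43 CPM in control libraries. Its groups did not overlap, as in 2.79% of all tested genes in this direction, but it passed in neither fit (adjusted p = 0.347 and 0.0638, edgeR). Psen2, a subunit of gamma-secretase, had 38.1 ± 12.4 CPM in Bmi1-deleted and 56.6 ± 10.9 CPM in control libraries (adjusted p = 0.514 and 0.0524, edgeR).

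Transcription factors are known that switch cells between E-cadherin and N-cadherin. Of 9 tested (12 listed) 0 passed with or without the block and 0 in DESeq2, 2 had an unadjusted p under 0.05, and the median log2 change was 0.13. Tcf4 had 135 ± 24.1 CPM in Bmi1-deleted and 178 ± 15.2 CPM in control libraries (log2 change −0.40, adjusted p = 0.448, edgeR). Klf4, also a factor of keratinocytes, had 615 ± 178 CPM in Bmi1-deleted and 435 ± 94.2 CPM in control libraries (0.50, adjusted p = 0.553, edgeR). Twist1, a mesenchymal factor, was low, at 2.70 ± 1.72 CPM in Bmi1-deleted and 0.796 ± 0.635 CPM in control libraries (adjusted p = 0.633, edgeR).

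Genes of the desmosome, the junction of keratinocytes that uses its own cadherins, had 12 tested members (13 listed). Of these 0 passed with or without the block and 0 in DESeq2, 2 had an unadjusted p under 0.05, and the median log2 change was 0.39. Pkp2 had 5.15 ± 4.20 CPM in Bmi1-deleted and 1.67 ± 1.23 CPM in control libraries. Dsg1b had 13.4 ± 7.97 CPM in Bmi1-deleted and 6.89 ± 2.77 CPM in control libraries, and Dsc2 had 1.73 ± 1.08 CPM in Bmi1-deleted and 0.850 ± 0.554 CPM in control libraries. Keratinocyte markers summed to 2201 to 4720 CPM in Bmi1-deleted and 2465 to 2901 CPM in control libraries, with libraries 1 and 2 of the Bmi1-deleted group highest and 12 of 15 tested markers positive. Of these markers 0 were at 0 in all libraries, and 3 (Perp, Dsp and Dsg3) are also on the desmosome list. Their part in the desmosome values was not tested.

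**Figure D5:**
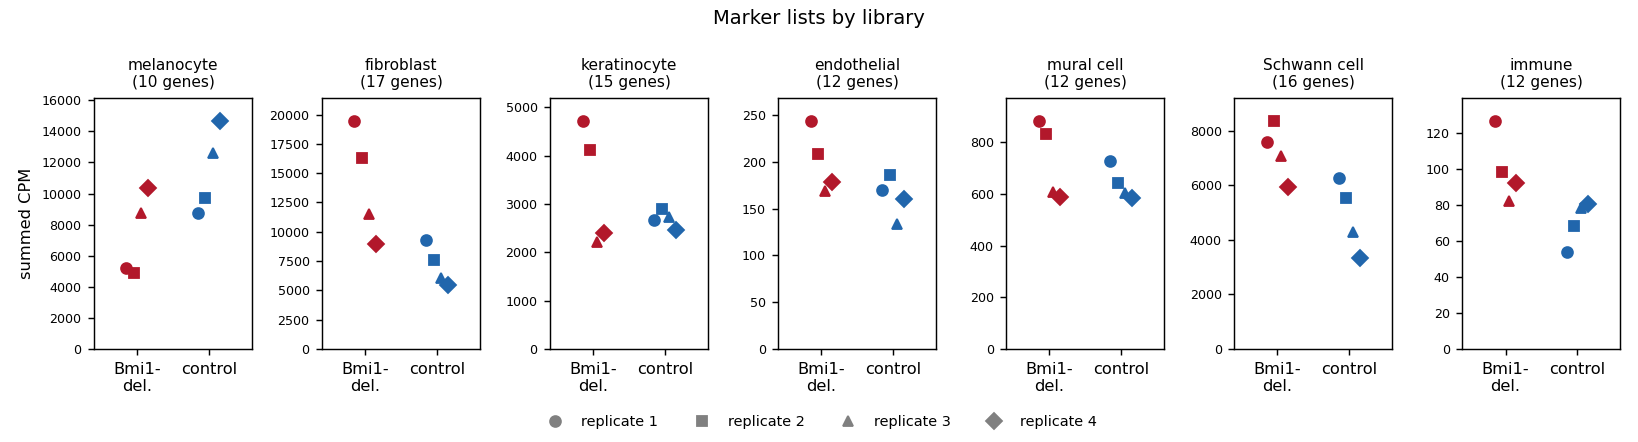
Summed CPM of 7 marker lists in each Bmi1-deleted and control library (linear axes from 0; symbols mark the replicate number). Fibroblast and Schwann cell sums reach higher in Bmi1-deleted libraries (8935 to 19479 and 5927 to 8363 CPM) than in control libraries (5417 to 9331 and 3327 to 6270 CPM), and melanocyte sums reach higher in control libraries.

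No marker list passed an exact two-sided permutation test of its summed level after adjustment over the 7 lists. The fibroblast and immune lists had an adjusted p of 0.133, as did the Schwann cell list, the melanocyte list 0.200, and the endothelial, mural and keratinocyte lists 0.200, 0.367 and 0.429. Mural cells also use Mcam, and their markers summed to 587 to 884 CPM in Bmi1-deleted and 585 to 726 CPM in control libraries. The change was positive in 8 of 9 tested markers, and 3 of the 12 listed had a mean of at least 10 CPM in control libraries. The part of mural cell RNA in the level of Mcam was not tested. Of the 10 melanocyte markers 8 fell with the block, among them Dct with 3219 ± 1401 CPM in Bmi1-deleted and 4997 ± 1294 CPM in control libraries (adjusted p = 0.639 without and 0.00261 with the block, edgeR).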

How the data were processed

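Genes were measured in 8 sorted melanocyte stem cell libraries, grouped by labelled genotype and numbered as in their titles. Per the labels, 1 ng of RNA from over 10000 cells went into a stranded total RNA kit with 15 and again 15 cycles of PCR; counts include PCR copies. The authors deposited estimated counts per gene, as whole numbers, and log2 values of TPM plus 1. Salmon 1.2.1 and build mm10 are named in the submitters' processing notes; annotation and strand settings are not stated there. Symbols and positions came from GENCODE M21.

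The 10 genes, the lists and the alternatives were chosen with earlier results of these data known. Counts were filtered with filterByExpr, scaled by TMM and tested with edgeR 4.0.16 (quasi-likelihood, robust, two-sided, R 4.3.3), with Benjamini-Hochberg adjustment over 16011 genes and a threshold of 0.05. SEs were taken from the F statistic. Pair differences used log2(CPM + 0.25). DESeq2 1.42.0 and limma 3.58.1 on log2(TPM + 1) and log2(TPM + 0.1), other scalings and filters, the replicate block, sex read from Xist and Y-linked counts, marker scores as covariates and leaving out libraries were alternatives; blocked fits without each pair were added after seeing the data. Marker scores are the mean log2 CPM of a list. The limma fits used the TPM as deposited, without the rescaling that was used for the order of levels. Between replicates of a group the chi-square per degree of freedom was 12.2 to 38.2, where counting alone gives about 1.

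Same-numbered libraries deviated together from their group means (correlations of 0.124 to 0.186 across genes), though 4 of 8 libraries matched best with their own number. For the rest the closest match was the other number of 1 and 2 or of 3 and 4. This check therefore does not settle which libraries form a pair within 1 and 2 or within 3 and 4, and no label states a pairing. By the sex read from counts, pair 3 joined a male Bmi1-deleted and a female control library. The blocked fits and pair differences take the numbers as given, and their values depend on this choice. In each list other than marker lists the 3 tested genes with the smallest p and a mean of at least 1 CPM were named, beside the 10 genes and the 5 most like Mcam. Scripts were tested on simulated data.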

Additional observations from a re-analysis of the deposited data

How the results depend on the processing

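Genes called across all genes numbered 15, against 386 with the replicate block, 158 in DESeq2, 380 with no filter on low counts, 29 with the keratinocyte score, 4 and 3 in limma on log2 TPM with pseudocounts of 1 and 0.1, 8 (without control 2) to 45 (without control 1) in leave-one-out fits, and 351, 113, 238 and 189 in blocked fits without pair 1, 2, 3 or 4. Of the 10 adhesion genes 0 were called, against 1, Mcam, in DESeq2, with RLE size factors, with at least 10 CPM in 4 libraries, with no filter and with either marker score, 2 with the replicate block, 0 to 1 in leave-one-out fits and 1 to 3 in blocked fits without a pair. With the block the lists gave 2 protocadherins, 2 catenins and partners, 4 other immunoglobulin-type genes, 6 ligands and partners and 1 sheddase, against 0 each; leave-one-out fits gave 0 to 2 protocadherins and 0 to 1 immunoglobulin-type genes. The difference in mean log2 CPM of Bmi1 lay between −0.300 and −0.178 without each library in turn, and its exact permutation p rose to 0.0857 without any 1 Bmi1-deleted library.

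Of the values of the 10 genes under alternatives 196 kept their sign and side of the threshold, 16 passed it anew and 18 changed sign. Alcam, at 0.003, was −0.055 with the fibroblast score, −0.0020 with the keratinocyte score, −0.23 and −0.24 in limma, −0.0086 with upper-quartile scaling, −0.00093 and −0.025 in blocked fits without pair 2 or 4, and −0.043 to 0.033 in leave-one-out fits. With the fibroblast score Cadm1 was −0.091, Cdh2 −0.22, Cdh3 0.29 and Cdh11 −0.16. In limma Cadm1 was −0.052 and Ncam1 −0.018 with both pseudocounts; limma moved the median of all genes by −0.14 and −0.22, so relative to it neither reversed, Mcam was 0.57 and 0.65, and Cdh13, at −0.24 without limma, was 0.05 and 0.07. Leave-one-out fits gave 0.23 to 0.57 for L1cam, 0.11 to 0.24 for Cadm1, 0.36 to 0.80 for Cdh2, −0.51 to −0.13 for Cdh3 and −0.36 to −0.10 for Cdh13, and the fibroblast score −0.42 for Cdh13. The causes were not tested. Only 8 libraries and the spread between them limit what a difference of the size seen in L1cam or Cdh1 can show.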
